A study of Mus musculus with 13 samples.

Results

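The 44 genes described here, of meiotic prophase and of the piRNA pathway, were followed in RNA of Sertoli cell preparations from adult mouse testis. They were chosen by name, and all 44 were found among the 27111 named genes of the count table. They fall into 7 roles. These were the synaptonemal complex and chromosome axis with 9 genes, the meiotic cohesins with 3, the making of double-strand breaks and strand exchange with 8, crossover formation with 4, the piRNA pathway with 12, regulators of germ cell transcription and translation with 3, and genes of late spermatocytes with 5. By the time of their known main use, 20 genes were counted as early (axis, cohesins and breaks), 9 as late (Piwil1, Tdrd6, Mybl1, Ybx2, Ccna1, Insl6, Pttg1, Spag6 and Tex101) and 15 as neither.

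In the study, Sertoli cells were enriched from C57Bl/6J males of 3 to 5 months. Control males (CTRL, n = 6) grew up undisturbed. MSUS stands for unpredictable maternal separation with unpredictable maternal stress, to which the other males (n = 7) had been exposed as pups. Their litters spent 3 h of each of the first 14 days of life without the dam. The stressor for the dam was either 20 min of restraint or 5 min in water at 18 °C, and neither its timing nor that of the separation could be foreseen. No transgene is named for these mice, and the samples are named here by group and animal number. Sorting by DNA stain, size and mitochondrial stain kept large diploid cells with a strong mitochondrial signal. By DNA stain, the study set diploid cells apart from haploid spermatids and from dividing cells, which it calls tetraploid. Primary spermatocytes, in which meiotic prophase takes place, have replicated their DNA, so the gate was aimed to leave them out too. Vimentin, the study's stain for Sertoli cells, marked most but not all cells of the final gate. For transcripts of elongated spermatids, the study proposes remnants taken up by Sertoli cells as the likely source. Which cells the RNA of the genes described here came from was not tested. The question behind the groups was whether stress in early life leaves a trace in the Sertoli cells of the adult.

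Meiosis is the pair of divisions by which germ cells reduce their chromosome number. In its prophase, cohesins and axis proteins organise each chromosome, SPO11 cuts the DNA, the cuts are repaired from the homologous chromosome, and the synaptonemal complex holds the homologues together while crossovers form. piRNAs are small RNAs bound by PIWI proteins. In the testis they silence transposons, and those made in large amounts at the pachytene stage of prophase depend on the transcription factor A-MYB, the product of Mybl1. Sertoli cells are the somatic nurse cells of the seminiferous tubule and do not enter meiosis.

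The count table held estimated counts per gene, with totals of 13087203 to 18649945 per CTRL sample and 12701776 to 15693938 per MSUS sample. Levels are given as log2 CPM (counts per 1000000 counts of the library) after scaling by trimmed mean of M-values (TMM), with a prior count of 2 added. At this depth 41 of the 44 genes had enough counts to be tested, and Mei1, Mei4 and Piwil4 had not. Together the 44 genes made up 0.148% of the CPM in CTRL samples. Sertoli cell markers were high in every sample, with a mean of 8.82 ± 0.07 log2 CPM (SD, n = 6) in CTRL and 8.78 ± 0.08 (n = 7) in MSUS for 10 markers, of which Clu, a secreted chaperone, was the most abundant at 13.08 in CTRL. In bulk RNA, fewer cells of a type and less RNA per cell cannot be told apart, and this holds for every level below.

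The libraries of MSUS 1 and MSUS 11 stood apart from the others for these genes. MSUS 1 was the lowest of the 13 samples for 28 of the 44 genes (with Mei4, at 0 counts there and in 5 other samples) and lay below the CTRL mean for 39 of them. MSUS 11 was the highest for 25 genes and lay below the CTRL mean for 6. Their total counts, 15327400 and 13086242, were within the range of the other libraries. The counts of most roles and of some lists are therefore also given without MSUS 1 and MSUS 11. The same holds for the early and late genes and for the correlations with the set. A single fold change has all 13 samples in it unless stated.

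**Figure D1:**
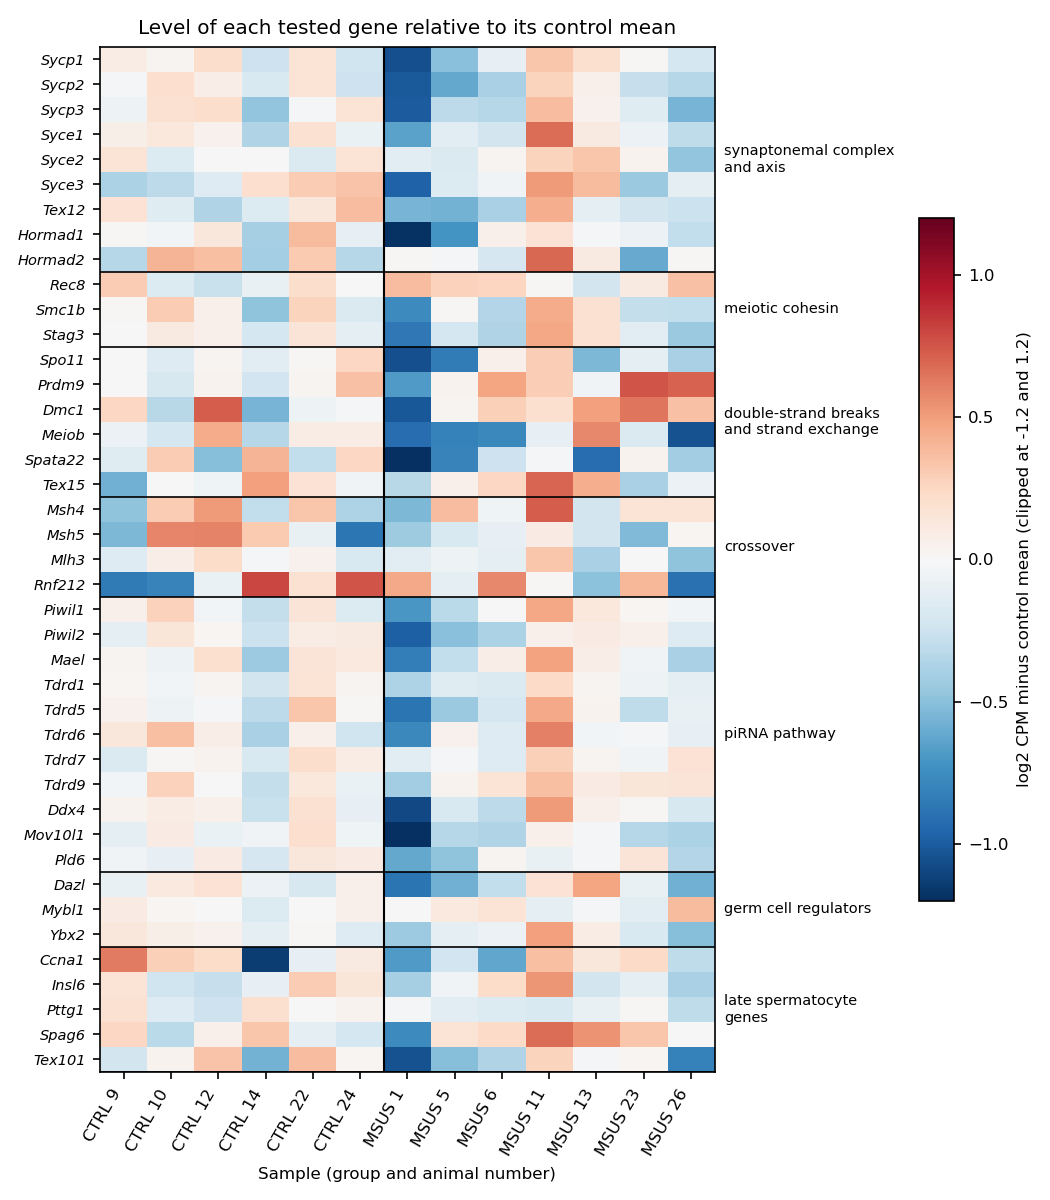
Level of each of the 41 tested genes (rows, grouped by role) in each of the 13 samples (columns), as log2 CPM minus the mean of the 6 CTRL samples, in colour from blue (lower) to red (higher), clipped at -1.2 and 1.2. The column of MSUS 1 is blue for most genes and that of MSUS 11 red, while Rec8, Rnf212 and Mybl1 do not follow the other rows.

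Promoter sequence was available for 37 of the 44 genes in the RefSeq table of mouse promoters (GRCm38.p6), and the 250 bases before the first listed start of each gene were searched on both strands. The MYB core AACNGNC was present in 17 of the 37 (45.9%), against 27.6% of all 27025 promoters and 28.4% of the 10830 promoters of tested genes. The E-box CACGTG, a site read by basic helix-loop-helix factors, was present in 11 (29.7%), against 6.05% and 8.13%. GCGGGAA, the core of an E2F site, was present in 8 (21.6%), against 3.84% and 6.79%. TGACGT, the start of a cAMP response element, was present in 1, that of Dazl (2.7%), against 6.56% and 9.81%. Matches to different motifs were counted separately where they overlapped. The promoters of the 37 genes held a median of 16 CG dinucleotides, against 15 for the tested genes and 6 for all promoters. By stage, the MYB core was present in 6 of 17 early and 4 of 6 late genes with a promoter, and the E-box in 5 and 1. These matches are a description of letters, not of bound sites.

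The promoters of 3 genes are shown as examples that carry the motifs. Mov10l1 and Sycp2 were the genes of the set with an unadjusted p under 0.05 between MSUS and CTRL, 4.88% of those tested against 5.42% of all genes, and Piwil1 encodes the PIWI protein of pachytene piRNAs. Each run ends before the next annotated exon and reads 5′ to 3′ on the strand of the gene, and capitals mark matches to the MYB core or the E-box on either strand. The Mov10l1 run is chr15:88982744-88982908 (+) with 2 MYB matches and 1 E-box. That of Sycp2 is chr2:178407686-178407908 (-) with 3 MYB matches. That of Piwil1 is chr5:128735996-128736173 (+) with 1 MYB match and 2 E-boxes. GENCODE lists further exons of Piwil1 upstream of this run.
Mov10l1: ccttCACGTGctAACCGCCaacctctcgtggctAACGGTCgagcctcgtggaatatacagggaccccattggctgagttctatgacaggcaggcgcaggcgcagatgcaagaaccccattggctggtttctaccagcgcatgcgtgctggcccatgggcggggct
Sycp2: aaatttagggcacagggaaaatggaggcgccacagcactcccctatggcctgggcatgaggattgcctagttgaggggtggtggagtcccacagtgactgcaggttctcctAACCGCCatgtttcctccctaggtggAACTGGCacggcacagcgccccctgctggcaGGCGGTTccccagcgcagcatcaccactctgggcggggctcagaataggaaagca
Piwil1: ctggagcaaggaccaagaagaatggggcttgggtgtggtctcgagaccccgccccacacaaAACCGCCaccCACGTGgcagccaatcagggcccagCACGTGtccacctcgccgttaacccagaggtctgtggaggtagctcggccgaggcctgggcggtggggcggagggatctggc

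Per length of annotated exon, the levels of the 44 genes in CTRL spanned from Ybx2 at 98.1 ± 7.51 RPKM (reads per kilobase of exon, scaled to library size as CPM are; SD, n = 6) to Mei4 at 0.0261 ± 0.0333. Ybx2, which encodes an mRNA-binding protein that stores transcripts in germ cells, was the only gene whose CTRL range (87.8 to 107) did not overlap that of the next in order, Mael at 51.5 ± 7.61 RPKM. Then came Syce1 (34.9 RPKM), Ddx4 (27.3), Sycp3 (20.3), Tdrd1 (18.9), Tex101 (18.8), Sycp1 (18.2) and Piwil1 (17.8), and each of these overlapped its neighbours. Below 3 RPKM were genes of several roles, among them Spo11 (2.18 RPKM), Hormad2 (1.13), Prdm9 and Dmc1 (both 1.06), Msh5 (0.582), Mei1 (0.198) and Piwil4 (0.0367). The median of the tested genes was 5.13 RPKM, and 26 of the 44 genes were above it. On the same scale the Sertoli cell markers Clu and Amhr2 were at 2520 and 591 RPKM and Sox9 at 98.8 RPKM.

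The comparison of MSUS with CTRL asks whether the level of these genes differed between males with and without the early stress. The fitted log2 fold change was below 0 for 31 of the 41 tested genes and above 0 for 10, with a median of -0.13 and a range of -0.69 to 0.23. Over all 14421 genes tested, 50.5% had a fold change below 0. Of the 41 genes, 2 (4.88%) had an unadjusted p under 0.05, the cut-off the study used, and both were lower in MSUS. This share is near the background of 5.42% of all genes with p under 0.05, of which 3.02% were higher and 2.4% lower in MSUS. With library sizes alone in place of TMM, the split over all genes was 325 higher and 469 lower, against 435 higher and 346 lower, and the same number of the 41 genes had p under 0.05. After Benjamini-Hochberg adjustment over all genes, the share with p under 0.05 was 0%, and the smallest adjusted p of any gene was 0.878 (limma voom). The groups overlapped for all 44 genes, and for 20 of the tested genes the fold change was smaller than its standard error. Neither count was made over all genes tested, so neither says anything particular about the set.

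Mov10l1 encodes an RNA helicase that binds the long precursors of piRNAs, and it lies at chr15:88982909-89055152 in GRCm38. Its level was 4.70, 4.78 and 5.02 log2 CPM (lowest, median and highest) in CTRL and 3.63, 4.48 and 4.88 in MSUS. Of the 7 MSUS samples, 5 lay below every CTRL sample, and MSUS 11 and MSUS 13 lay within the CTRL range. The fold change was -0.38 on the log2 scale (SE 0.15, unadjusted p = 0.0202, adjusted p = 0.878, limma voom). Without MSUS 1 it was -0.23 (unadjusted p = 0.0345, limma voom). MSUS 1 and MSUS 11 were the lowest and highest MSUS samples of this gene. Without both, the fold change was -0.29 (unadjusted p = 0.00861, adjusted p = 0.738, limma voom).

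Sycp2 encodes a protein of the axial elements, the rods along which paired chromosomes are later zipped, and lies at chr2:178345293-178407685. Its level was 5.36, 5.64 and 5.81 log2 CPM in CTRL and 4.60, 5.27 and 5.88 in MSUS. Of the 7 MSUS samples, 5 lay below every CTRL sample, MSUS 13 lay within the CTRL range and MSUS 11 above it. The fold change was -0.34 (SE 0.15, unadjusted p = 0.0379, adjusted p = 0.878, limma voom). It did not pass 0.05 with edgeR's quasi-likelihood test (unadjusted p = 0.0801) or DESeq2 (unadjusted p = 0.0843), nor when any of 8 samples was left out of the limma voom fit. The p-value was 0.101 without MSUS 1, 0.0809 without MSUS 5, 0.0608 without MSUS 6, 0.0524 without MSUS 26, 0.0513 without CTRL 9, 0.0821 without CTRL 10, 0.0643 without CTRL 12 and 0.0776 without CTRL 22 (limma voom), and the fold change ranged from -0.45 to -0.23 over all 13 such fits. Without both MSUS 1 and MSUS 11, again the ends of the MSUS group, the fold change was -0.32 (unadjusted p = 0.0113, adjusted p = 0.738, limma voom).

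**Figure D2:**
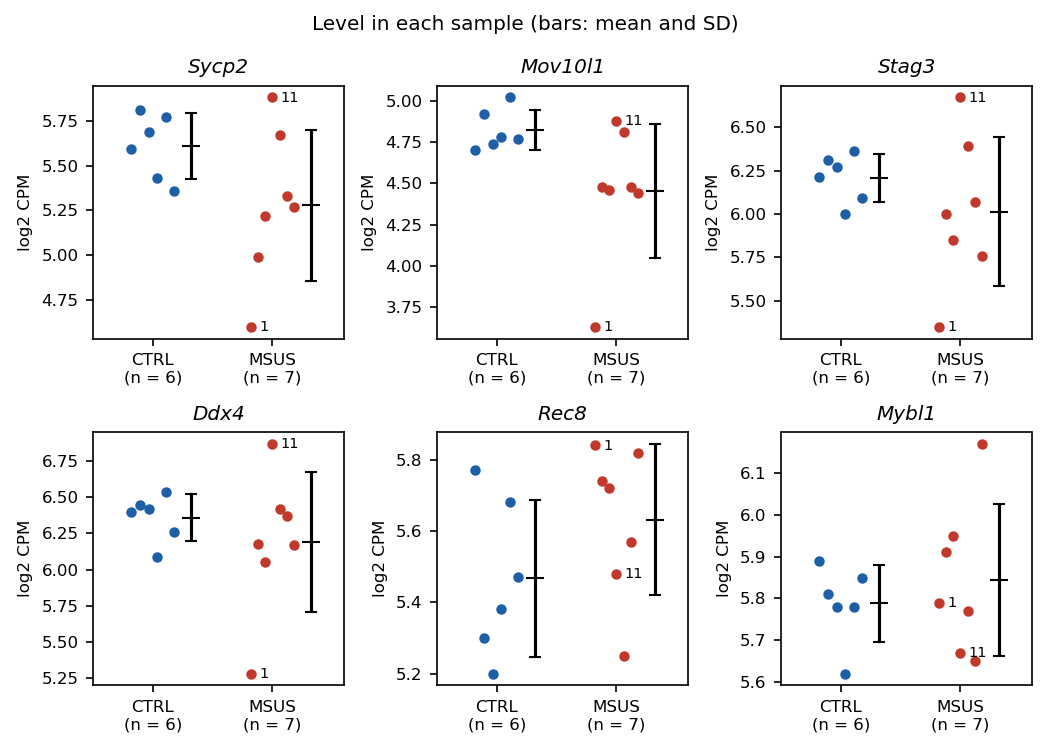
Level (log2 CPM, each axis on its own scale) of 6 genes in every CTRL (blue) and MSUS (red) sample, with the mean and SD of each group as bars, and MSUS 1 and MSUS 11 numbered. MSUS 1 is the lowest sample for Sycp2, Mov10l1, Stag3 and Ddx4 and the highest for Rec8, and the groups overlap in each panel.

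The number of the 41 genes with p under 0.05 moved with single samples. It was 12 without MSUS 11 (29.3%), all of them lower in MSUS, where 7.35% of all genes tested had p under 0.05 and 3.31% were lower. It was 7 without MSUS 13 (17.1%, against 7.15% of all genes), 5 without CTRL 14 (12.2%, against 4.69%), 5 without MSUS 23 (12.2%, against 6.1%), and 1 (2.44%) without MSUS 5, CTRL 22 or MSUS 26 (against 3.74%, 5.53% and 5.02%). Without MSUS 1 it was 3 (7.32%, against 5.42% of all genes), of which Mov10l1 was lower and Spag6 and Prdm9 higher. The 12 genes without MSUS 11 were Sycp2, Sycp3, Hormad1, Stag3, Spo11, Meiob, Spata22, Piwil2, Tdrd5, Mov10l1, Ybx2 and Tex101, each with an adjusted p of 0.666 or 0.667 (limma voom). Without both MSUS 1 and MSUS 11 the number was 3 (7.32%, near the 6.67% of all genes), namely Spo11, Mov10l1 and Sycp2. In that fit 32 of 41 genes, and 50.3% of all genes, had a fold change below 0. The median fold change of the 41 genes was -0.04 without MSUS 1, -0.09 without MSUS 26 and -0.23 without MSUS 11.

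**Figure D3:**
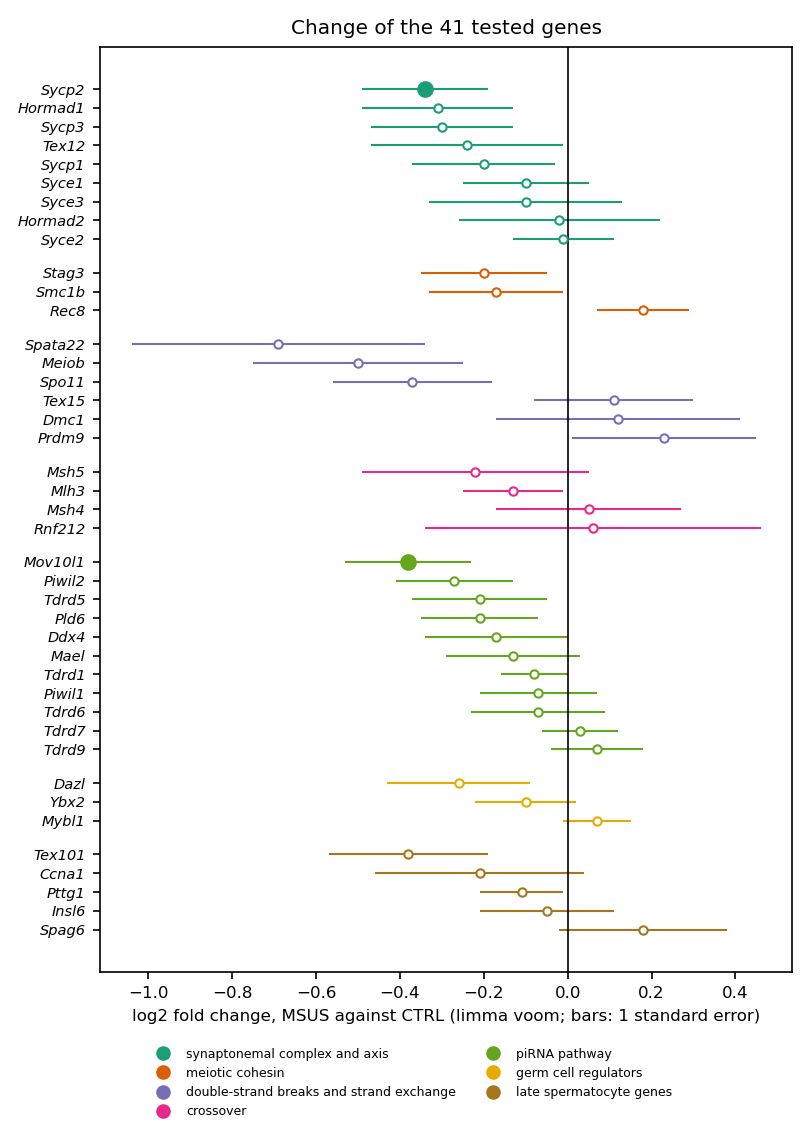
Log2 fold change of MSUS against CTRL for the 41 tested genes, grouped by role, with bars of 1 standard error. Filled points mark the 2 genes with an unadjusted p under 0.05, Sycp2 and Mov10l1, and 31 of the 41 points lie below 0.

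All 9 genes of the synaptonemal complex and axis had a fold change below 0 (100%, against 50.5% of all genes). The fold changes ran from -0.34 for Sycp2 to -0.01 for Syce2 (median -0.20). Sycp2 alone of the 9 had p under 0.05 (11.1%, against 5.42% of all genes). Without MSUS 1 the fold change was below 0 for 7 of the 9 (median -0.05), above 0 for Syce2 and Syce3, and p was under 0.05 for 0. Without both MSUS 1 and MSUS 11 it was below 0 for all 9 (median -0.17), with p under 0.05 for Sycp2. Sycp1, the transverse filament of the complex (chr3:102818499-102936100), was at 5.76, 6.07 and 6.22 log2 CPM in CTRL and 4.96, 5.91 and 6.34 in MSUS. Syce1, part of the central element (chr7:140777229-140787852), was at 5.31, 5.73 and 5.85 in CTRL and 5.02, 5.53 and 6.34 in MSUS. In both genes the MSUS samples spread on either side of the CTRL range, with MSUS 1 lowest and MSUS 11 highest. Their fold changes were -0.20 (SE 0.17) and -0.10 (SE 0.15). Hormad1, an axis protein that marks chromosomes not yet paired, had one of the larger fold changes of this role at -0.31 (SE 0.18). MSUS 1 was its lowest sample at 3.59 log2 CPM, while its medians were 4.71 in MSUS and 4.76 in CTRL.

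Of the 3 cohesin genes, Rec8 did not follow the other 2. Stag3 and Rec8 encode subunits of the ring that holds sister chromatids in meiosis. Stag3 (chr5:138280240-138312393) was at 6.0, 6.24 and 6.36 log2 CPM in CTRL and 5.35, 6.0 and 6.67 in MSUS, with a fold change of -0.20 (SE 0.15), or -0.09 without MSUS 1. Rec8 (chr14:55618037-55625395) was at 5.20, 5.42 and 5.77 in CTRL and 5.25, 5.72 and 5.84 in MSUS, with a fold change of 0.18 (SE 0.11), or 0.14 without MSUS 1. MSUS 1 was the lowest sample for Stag3 and the highest for Rec8. Over the 13 samples, the Pearson correlation of Rec8 with the mean of the other genes of the set was -0.58 and that of Stag3 was 0.94, and without MSUS 1 and MSUS 11 they were -0.56 and 0.79. With the elongated spermatid marker score as a covariate, Rec8 was higher in MSUS at unadjusted p = 0.0362 (adjusted p = 0.643, limma voom), in a fit where 7.55% of all genes had p under 0.05. Smc1b, the meiotic SMC subunit, was lowest in MSUS 1 and highest in MSUS 11 like Stag3, with a fold change of -0.17 (SE 0.16). Its correlation with the mean of the other genes was 0.81, or 0.55 without MSUS 1 and MSUS 11. The median fold change of the 3 cohesin genes was -0.17, or -0.06 without MSUS 1 and -0.16 without both libraries.

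Among the 8 genes of break formation and strand exchange, 6 were tested. Of these, 3 had a fold change below 0 and 3 above, and 0 had p under 0.05. Those with p under 0.05 were 1 higher without MSUS 1, 3 lower without MSUS 11 and 1 lower without both. In these fits 5.42%, 7.35% and 6.67% of all genes had p under 0.05. Spo11, the enzyme that cuts the DNA (chr2:172977700-172993576), was at 2.96, 3.12 and 3.37 log2 CPM in CTRL and 2.06, 2.73 and 3.41 in MSUS. Its fold change was -0.37 (SE 0.19, unadjusted p = 0.0661, limma voom), or -0.25 without MSUS 1. Without both MSUS 1 and MSUS 11, its lowest and highest samples, the fold change was -0.36 (unadjusted p = 0.0448, adjusted p = 0.738, limma voom). Of the 7 MSUS samples, 4 lay below every CTRL sample, and MSUS 11 lay above all of them. Tex15, needed for the repair of meiotic breaks (chr8:33516738-33585582), was at 2.50, 3.06 and 3.57 in CTRL and 2.69, 3.14 and 3.77 in MSUS, with no MSUS sample below the CTRL range.

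Spata22 and Meiob encode partners in a complex that coats single-stranded DNA at the breaks. They had the largest negative fold changes of the set, -0.69 (SE 0.35) and -0.50 (SE 0.25), on low counts, or -0.41 and -0.42 without MSUS 1. Spata22 had 16 to 34 counts per sample in CTRL and 4 to 20 in MSUS, with the 4 in MSUS 1. Its SD over the 13 samples, 0.64, was the largest among the tested genes, and that of Meiob was 0.51. Meiob was at 2.04, 2.39 and 2.83 log2 CPM in CTRL and 1.34, 1.61 and 2.96 in MSUS, where 4 of 7 samples lay below every CTRL sample and MSUS 13 above all of them. Prdm9, the histone methyltransferase that places the breaks, went the other way at 0.23 (SE 0.22). Without MSUS 1 its fold change was 0.39 (unadjusted p = 0.047, adjusted p = 0.853, limma voom). The genes Mei1 and Mei4, both needed to form breaks, had 3 to 16 and 0 to 7 counts per sample and were not tested.

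In the crossover group, 2 of 4 genes had a fold change below 0 and 2 above, or 3 and 1 without MSUS 1 and MSUS 11, and 0 had p under 0.05. Mlh3, part of the nuclease that resolves crossover intermediates (chr12:85234520-85270599), was at 4.27, 4.47 and 4.68 log2 CPM in CTRL and 3.97, 4.34 and 4.79 in MSUS. Msh4, which holds early intermediates together with Msh5 (chr3:153857149-153906138), was at 2.20, 2.69 and 3.19 in CTRL and 2.14, 2.85 and 3.41 in MSUS. The groups overlapped over most of their range for both. Rnf212, a ligase that selects the sites of crossovers, had an SD of 0.60 over the 13 samples on 6 to 20 counts each, a fold change of 0.06 (SE 0.40), and a correlation of -0.16 with the mean of the other genes, or -0.02 without MSUS 1 and MSUS 11.

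Of the 12 piRNA pathway genes, 11 were tested, 9 had a fold change below 0 (81.8%, against 50.5% of all genes) and 2 above, and Mov10l1 had p under 0.05 (9.09%, against 5.42%). Without MSUS 1 there were 7 below 0 and 4 above (median -0.02, against -0.13 with it), and without both MSUS 1 and MSUS 11 again 9 and 2 (median -0.11). The Tudor-domain proteins TDRD1 and TDRD6 bind PIWI proteins in the granules near the nucleus. Tdrd1 (chr19:56826209-56870012) was at 6.46, 6.71 and 6.85 log2 CPM in CTRL and 6.31, 6.58 and 6.91 in MSUS, and was among the steadiest genes of the set with an SD of 0.16 over the 13 samples. Tdrd6 (chr17:43615335-43630299) was at 6.14, 6.60 and 6.89 in CTRL and 5.76, 6.50 and 7.14 in MSUS. Their fold changes were -0.08 (SE 0.08) and -0.07 (SE 0.16). The 3 PIWI genes differed in level. Piwil1 and Piwil2, used in adult spermatogenesis, were at 17.8 and 8.8 RPKM in CTRL, while Piwil4, used in fetal prospermatogonia, was at 0.0367 RPKM and had 0 counts in 6 of the 13 samples. The highest count of Piwil4 was 14, in MSUS 1, the sample lowest for Piwil1 and Piwil2.

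Of the germ cell regulators, Ybx2 (chr11:69935796-69941605) was at 7.37, 7.56 and 7.66 log2 CPM in CTRL and 7.02, 7.42 and 8.02 in MSUS. Its fold change was -0.10 (SE 0.12), or -0.20 without MSUS 11 (unadjusted p = 0.0412, adjusted p = 0.666, limma voom). Mybl1 (chr1:9667415-9700209), the A-MYB gene, was at 5.62, 5.79 and 5.89 in CTRL and 5.65, 5.79 and 6.17 in MSUS, with a fold change of 0.07 (SE 0.08). MSUS 1 was at the median of the MSUS samples for Mybl1, and MSUS 26, the highest, was the lowest sample for Ybx2. The correlation of Mybl1 with the mean of the other genes was -0.36 over the 13 samples and -0.54 without MSUS 1 and MSUS 11, and it was 0.21 within CTRL. Dazl, an RNA-binding protein that promotes translation in germ cells, had a fold change of -0.26 (SE 0.17), or -0.15 without MSUS 1.

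In the group of late spermatocyte genes, 4 of 5 had a fold change below 0 and 0 had p under 0.05. Without MSUS 1 there were 3 of 5 below 0, with Spag6 higher in MSUS at a fold change of 0.34 (unadjusted p = 0.0348, limma voom), and without MSUS 11 there were 4, with Tex101 lower at -0.49 (unadjusted p = 0.0162, limma voom). Without both there were 4, and 0 had p under 0.05. Tex101, a surface glycoprotein of germ cells (chr7:24668007-24676675), was at 4.37, 4.97 and 5.30 log2 CPM in CTRL and 3.89, 4.57 and 5.20 in MSUS, with a fold change of -0.38 (SE 0.19, unadjusted p = 0.0631, limma voom). Pttg1, the securin that guards sister chromatids until anaphase (chr11:43420250-43426251), was at 4.34, 4.60 and 4.78 in CTRL and 4.28, 4.45 and 4.60 in MSUS, with a fold change of -0.11 (SE 0.10). Pttg1 varied little between samples and did not follow the other genes (r = -0.14, or 0.06 without MSUS 1 and MSUS 11, and -0.78 within CTRL). Its estimates were not whole numbers, to within 0.01, in any of the 13 samples, as where reads are shared with another feature, and the same was true of Msh4 and Tdrd1. Estimates of Prdm9 and Piwil1 in 12 samples and of Sycp1 in 9 were not whole either. Spag6 has a near-identical copy, Spag6l, so its level is uncertain.

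Early and late genes varied together from sample to sample. The mean of the 20 early genes was 3.27 ± 0.10 log2 CPM (SD, n = 6) in CTRL, between 3.12 and 3.39, and 3.10 ± 0.35 (n = 7) in MSUS, between 2.49 in MSUS 1 and 3.65 in MSUS 11. The mean of the 9 late genes was 5.06 ± 0.14 in CTRL and 4.98 ± 0.27 in MSUS, with the same samples at the ends, 4.53 in MSUS 1 and 5.41 in MSUS 11. MSUS 1 was thus 0.78 below the CTRL mean for the early and 0.53 below it for the late genes, and MSUS 11 was 0.39 and 0.34 above it. Without MSUS 1 and MSUS 11, the SD of the other 5 MSUS samples was 0.12 for the early and 0.11 for the late genes. As these libraries were the ends of both means, a smaller SD follows from leaving them out. CTRL, with SDs of 0.10 and 0.14, kept all 6 samples, so these values do not compare the spread of the groups. The differences between the groups, -0.16 for the early and -0.08 for the late genes, were smaller than the pooled SDs of 0.269 and 0.22. Without MSUS 1 the differences were -0.06 and -0.00, without MSUS 11 they were -0.25 and -0.15, and without both they were -0.15 and -0.07. For the late genes the difference was also -0.05 without CTRL 9 and -0.13 without CTRL 14.

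As a description over the 13 samples, which share the total used for scaling, the early and late means correlated with a Pearson r of 0.91 and a Spearman rho of 0.81. Over the 11 samples without MSUS 1 and MSUS 11 these were 0.65 and 0.69. Within CTRL they were 0.46 and 0.37 (n = 6) and within MSUS 0.98 and 0.96 (n = 7). The distance between late and early genes was 1.80 ± 0.13 log2 CPM in CTRL and 1.88 ± 0.10 in MSUS, a difference of 0.08 against a pooled SD of 0.114, and 1 of 7 MSUS samples was below the CTRL mean. It was greatest in CTRL 9 (2.05) and MSUS 1 (2.04), and between 1.69 and 1.81 in the other CTRL samples. Without CTRL 9 the difference between the groups was 0.14, and it was 0.06 without MSUS 1.

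**Figure D4:**
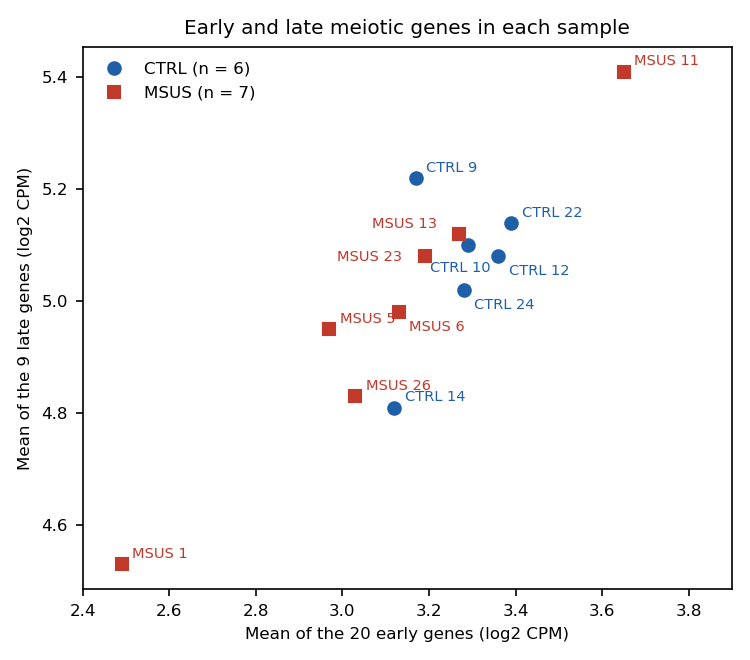
Mean level of the 20 early genes (horizontal axis, log2 CPM) against that of the 9 late genes (vertical axis, log2 CPM) in each CTRL (blue circles) and MSUS (red squares) sample. MSUS 1 (2.49 and 4.53) and MSUS 11 (3.65 and 5.41) lie at the ends, and the other 11 samples form a cloud in which the groups overlap.

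Single genes followed the set to different degrees. The correlation of a gene with the mean of the others over the 13 samples was over 0.8 for 17 genes and under 0.5 for 11, and below 0 for Rec8, Piwil4, Mybl1, Rnf212 and Pttg1. Without MSUS 1 and MSUS 11 it was over 0.8 for 4 genes and under 0.5 for 22, and below 0 for Rec8, Prdm9, Tex15, Rnf212, Mybl1 and Spag6. Within CTRL it was over 0.8 for 7 genes and below 0 for 9, and within MSUS over 0.8 for 23 and below 0 for 5. Rec8 and Rnf212 were below 0 in each of these sets of samples. Outside the set, the genes with levels most like the early mean, of 14380 compared by Pearson correlation over the 13 samples, were Adad1 (0.970), Kctd19 (0.966), Lypd4 (0.961), Nek2 (0.959) and Tktl2 (0.948). Those most like the late mean were Cfap206 (0.987), Lyar (0.977), X1700123L14Rik (0.972), March11 (0.963) and Drc1 (0.962). Without MSUS 1 and MSUS 11 the same correlations were 0.79 to 0.85 for the early and 0.91 to 0.96 for the late ones. Within CTRL they were 0.55 to 0.85 and 0.89 to 0.99. These genes were picked as the highest over the same samples, so their values are high in part by that choice.

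Other genes of the same processes, taken from 2 lists that do not hold the 44 genes, were counted in the same way. Of 26 other meiotic genes tested and reported, 18 had a fold change below 0 (median -0.12), and 2 (7.69%, against 5.42% of all genes) had p under 0.05, both lower in MSUS. These were Trip13, an ATPase that removes HORMA-domain proteins from the axis, at -0.28 (SE 0.11, unadjusted p = 0.0246) and Ankrd31, which helps to place breaks, at -0.44 (SE 0.20, unadjusted p = 0.0468), each with an adjusted p of 0.878 (limma voom). Without MSUS 1 there were 17 of 26 below 0 (median -0.04), and the fold changes of Trip13 and Ankrd31 were -0.26 and -0.22, of which Trip13 alone had p under 0.05. Without both MSUS 1 and MSUS 11 there were 22 of 26 below 0 (median -0.08). Without MSUS 11 alone 8 of the 26 had p under 0.05, all lower. In that fit 7.35% of all genes had p under 0.05, and 3.31% were lower. The most abundant genes of that list, Hspa2, a heat shock protein of spermatocytes, and Cdk2, a kinase of the cell cycle, were at 8.48 ± 0.13 and 6.47 ± 0.09 log2 CPM in CTRL, with fold changes of -0.10 (SE 0.11) and 0.02 (SE 0.06). Of 19 other piRNA genes tested, 15 had a fold change below 0 (median -0.10) and 0 had p under 0.05. Without MSUS 1 there were 11 of 19 below 0 (median -0.06), and without both MSUS 1 and MSUS 11 there were 15 (median -0.12). Mov10, the widely expressed relative of Mov10l1, and Fkbp6, a co-chaperone in piRNA loading, were the most abundant at 6.76 ± 0.17 and 5.91 ± 0.20 in CTRL, with fold changes of 0.18 (SE 0.09) and -0.05 (SE 0.09).

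Markers of the other cells of the tubule were set beside these values. The mean of 10 pachytene and diplotene markers, led by Hspa2, which the list of other meiotic genes also holds, was 5.33 ± 0.13 log2 CPM in CTRL and 5.20 ± 0.34 in MSUS, its lowest and highest samples were again MSUS 1 (4.66) and MSUS 11 (5.77), and its correlation with the mean of the 44 genes was 0.96 over the 13 samples, 0.85 without MSUS 1 and MSUS 11 and 0.66 within CTRL. Without these libraries its MSUS mean was 5.19 ± 0.15 (n = 5). Nxt1 was the 1 marker of the 10 with p under 0.05 (10%, against 5.42% of all genes), at 3.99 ± 0.10 in CTRL and 3.50 ± 0.51 in MSUS, with a fold change of -0.50, or -0.35 without MSUS 1 and -0.43 without both. The mean of 10 round spermatid markers, of which Spaca1 was the most abundant at 4.78 in CTRL, was 2.99 ± 0.12 in CTRL and 3.06 ± 0.45 in MSUS, with 2.67 in MSUS 1 and 3.97 in MSUS 11, and correlated with the set at 0.70. Without MSUS 1 and MSUS 11 that correlation was 0.30, it was -0.42 within CTRL and 0.88 within MSUS, and the MSUS mean was 2.96 ± 0.21. The mean of 8 elongated spermatid markers, led by the protamine Prm2, was 7.37 ± 0.23 in CTRL and 7.50 ± 0.46 in MSUS, and correlated with the set at 0.19 (0.18 without MSUS 1 and MSUS 11, -0.27 within CTRL and 0.35 within MSUS), with an MSUS mean of 7.37 ± 0.47 without these libraries. In MSUS 1, lowest for the meiotic genes, it was 7.63, above the CTRL mean, and in MSUS 11 it was 8.0, the highest of all samples.

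The mean of 10 spermatogonia markers was 0.17 ± 0.22 log2 CPM in CTRL and 0.22 ± 0.23 in MSUS. Of that list Dmrt1, which Sertoli cells express as well, was at 6.96 in CTRL, while Stra8, the gene that starts meiosis, had 8 to 25 counts per sample and Kit 5 to 21, and Sohlh1, Nanos3 and Rarg were at 0 in some samples. Leydig cell markers were at 2.63 ± 0.67 and 2.81 ± 0.36, led by Star (4.73), and peritubular myoid markers at 1.70 ± 0.98 and 2.27 ± 1.19, led by Acta2 (3.39). Of 5 macrophage markers Mrc1 was at 8.87 in CTRL, while Csf1r, Adgre1, Cd68 and C1qa were at 0 in some samples. Sertoli cell markers were lowest in MSUS 11 (8.67) and at 8.86 in MSUS 1, and correlated with the set at -0.40 (0.06 without MSUS 1 and MSUS 11, -0.50 within CTRL and -0.61 within MSUS). As summed CPM, the 44 genes came to 1480 ± 125 in CTRL and 1390 ± 281 in MSUS (973 in MSUS 1 and 1890 in MSUS 11), and the pachytene and diplotene markers to 953 ± 80.8 and 897 ± 204. The elongated spermatid markers summed to 1650 ± 289 and 1860 ± 543, the round spermatid markers to 107 ± 6.22 and 120 ± 41, and the Sertoli cell markers to 14800 ± 1030 and 14200 ± 948. The part of other cell types in the levels of the 44 genes was not tested.

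**Figure D5:**
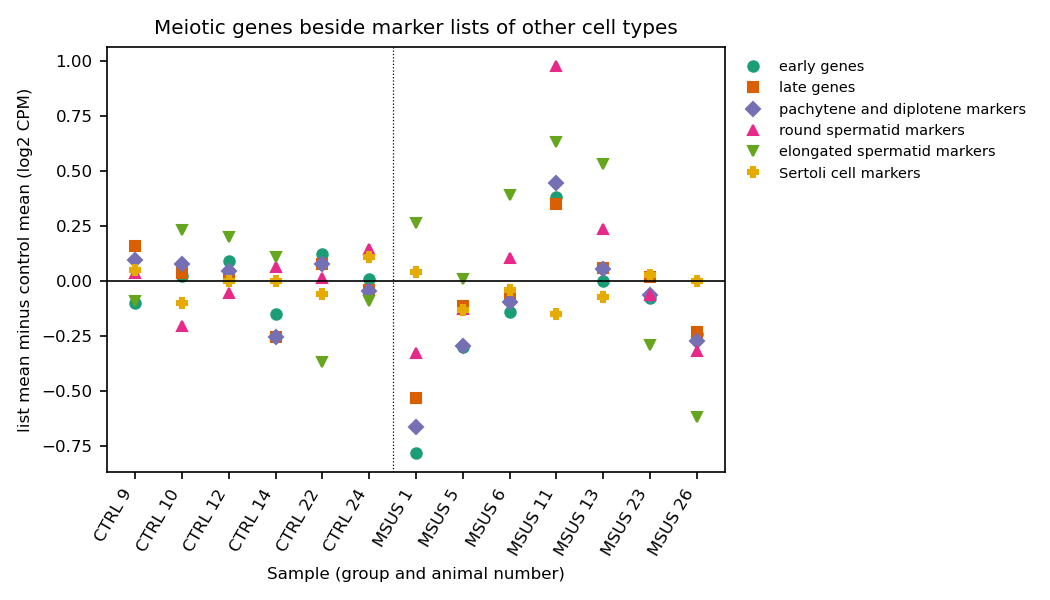
Mean log2 CPM of the early genes, the late genes and 4 marker lists in each sample (horizontal axis), each minus its CTRL mean (vertical axis). In MSUS 1 the early, late, pachytene and round spermatid lists lie below 0 and the elongated spermatid list above it, while in MSUS 11 these 5 lists lie above 0 and the Sertoli cell list below.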

How the data were processed

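RNA of enriched Sertoli cells from 6 CTRL and 7 MSUS males, each library made from 5 ng RNA with 12 PCR cycles, was read for 100 bp from a single end. Reads were trimmed by the authors with Trim Galore 0.6.5, and they quantified GENCODE transcripts with Salmon 1.1.0. The deposited values are estimated counts per gene without normalization, and how transcripts were summed to genes is not given in the sources used here. They were rounded to whole numbers. Features without a gene name (27170 of 54281, 20.7% to 26.7% of the counts per sample) stayed out of library sizes and tests. Genes passing the filterByExpr function of edgeR 4.0.16 were fitted with limma 3.58.1 (TMM and voom, as the study's methods state, with no covariate, 2-sided, R 4.3.3), and p-values were adjusted by Benjamini-Hochberg over all 14421 genes. The 23 alternatives to the fit, whose effect is given at the end, included DESeq2 1.42.0 and the quasi-likelihood test of edgeR. RPKM used exon lengths from a GENCODE annotation of GRCm38 with the same build as the authors' release, and 92.8% of tested genes had a length. Log2 CPM were averaged per sample for scores, with no test. Any pair of the 13 libraries differed by more than counting noise (chi-square per gene of 6.04 to 48.5 over 78 pairs).

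The 44 genes and all lists were chosen with earlier results of these data known. Genes named in full were those with p under 0.05, the 2 of each role with the highest CTRL level in log2 CPM, the 3 with the largest SD, of the other meiotic and piRNA lists those with p under 0.05 and the 2 most abundant, and the 5 most like each score. Other genes are named as examples. The p-values measure the spread between these samples, taken as independent. All samples are of the cohort the study calls batch 1, and cage and litter did not enter the fit. As whole litters were exposed, the p-values can be too small if males of the same litter are among the samples. From the list of other meiotic genes, 1 gene is not reported here, and the counts of that list leave it out.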

Additional observations from a re-analysis of the deposited data

Results flagged for a closer look

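Among 88 groups of values (the 41 tested genes and the 3 scores, each in CTRL and in MSUS), 4 had a sample with a gap to its nearest neighbour beyond Dixon's critical value at 95%, where chance alone passes about 1 in 20, or 4.4. In MSUS 1, Dmc1, the recombinase of meiotic strand exchange, was at 0.38 log2 CPM, and at 1.43 to 2.04 in the other MSUS samples. In the same library Tdrd9, a helicase of the piRNA pathway, was at 4.87, against 5.33 to 5.65, and Mov10l1 at 3.63, against 4.44 to 4.88. In CTRL 9 the late minus early difference was 2.05, against 1.69 to 1.81 in the other CTRL samples. All 3 genes stood out in the library that was lowest for 28 of the 44 genes.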

How the results depend on the processing

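Mov10l1 was lower in MSUS with p under 0.05 in all 23 alternatives to the fit, with a log2 fold change between -0.45 and -0.23, and Sycp2 in 13 of them. Sycp2 had an unadjusted p = 0.0801 with edgeR's quasi-likelihood test and an unadjusted p = 0.0843 with DESeq2, so that Mov10l1 was then the only 1 of the 41 genes (limma voom: 2). With the elongated spermatid marker score as a covariate the number was 5 (Rec8 higher, Mov10l1, Meiob, Sycp2 and Tex101 lower), or 12.2%, against 7.55% of all genes (1089), and leaving out each sample in turn gave 1 to 12. Over all genes, 1182 had p under 0.05 with no filter (limma voom: 781), and 534 to 1121 when a sample was left out. The number with an adjusted p under 0.05 was 0 in every alternative, and the smallest adjusted p of any gene was 0.0805, with DESeq2. Leaving out a sample moved the early difference between -0.25 and -0.06, the late one between -0.15 and -0.00 and the late minus early one between 0.06 and 0.14. Leaving out MSUS 1 and MSUS 11 together was chosen after seeing the data. Between 27 and 35 genes of the set were lower in MSUS over the alternatives. No paired analysis was made, as no pairing of MSUS with CTRL males is stated. Median counts of 13, 18 and 27 per sample for Rnf212, Spata22 and Tex12 limit the precision of their values.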
